A study of Rattus norvegicus with 6 samples.

Results

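The 7 genes described here mark oligodendrocyte precursor cells at the cell surface or in what they secrete, and were followed across every library of the series. They were taken by symbol from the deposited expression table and each matched 1 row, so the set is 7 of 32662 genes: Pdgfra, Cspg4, Ptprz1, C1ql1, Matn4, Pcdh15 and Neu4. The cells were primary cultured oligodendrocyte precursor cells from the cerebral cortex of Sprague-Dawley rats 1 to 2 days old, collected as the non-adherent cells of a mixed glial culture in 20% FBS and kept for 4 to 5 days on PDGF and FGF (10 ng/ml of each) with 2% B27. All 6 libraries share this culture protocol, so every one had been kept on the ligand of the PDGF receptor. Of the libraries, 3 are controls and 3 come from cells given preformed fibrils of human alpha-synuclein for 72 hours. Alpha-synuclein is the protein that aggregates in oligodendrocytes in multiple system atrophy. Whether the libraries of a group are separate cultures or animals is not in the labels; p-values therefore measure the spread between these libraries alone, which may be technical.

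Oligodendrocyte precursors are the dividing glia that give rise to myelinating oligodendrocytes. Their surface carries the receptor tyrosine kinase PDGFRA, through which PDGF keeps them dividing, and the proteoglycans NG2 (from Cspg4) and PTPRZ1, a receptor tyrosine phosphatase decorated with chondroitin sulfate. They also secrete the C1q-like protein C1QL1 and the matrix protein matrilin-4, and express the cadherin-related adhesion protein protocadherin-15 and the sialidase NEU4, which trims sialic acid from glycans. As the cells mature into oligodendrocytes, PDGFRA and NG2 are known to be lost.

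Of the 7 genes, 4 had a lower level in the fibril library than in the control library of the same replicate number in all 3 replicate numbers. These were Pdgfra, Cspg4, Ptprz1 and Pcdh15, with mean levels at 40.0%, 38.6%, 43.6% and 44.2% of the control mean. Of all 10766 tested genes, 19.3% were lower in all 3 replicate numbers. C1ql1 and Matn4 were higher with fibrils in replicate 3 and not in the other replicate numbers, and Neu4 was close to 0 throughout. For all 7 genes the 2 groups overlapped, where 5.3% of all tested genes were lower and 4.24% higher without overlap. The test between groups called 0 of the 6 tested genes and 0 of all 10766. For each gene the largest difference lay in replicate 3. The labels do not state that libraries of the same number are pairs. In bulk RNA, fewer precursor cells and less RNA per precursor cell cannot be told apart.

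Levels are FPKM, fragments scaled by gene length and by library size, which can be compared between genes because they are per length. The place of a gene is given as the percentage of the 10766 tested genes with a lower FPKM in the same library. Genes were tested if 3 or more libraries reached 1 FPKM. Differences are fibril minus control on the log2(FPKM + 1) scale, on which low genes change less than they do in FPKM. They were tested with limma over all tested genes, two-sided, with Benjamini-Hochberg adjustment and a threshold of 0.05. With 3 libraries in each group, the smallest two-sided p of an exact permutation test is 0.1.

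The libraries differed in ways that touch these values. Mitochondrial genes held 80.3% and 75.6% of summed FPKM in control and fibril replicate 1, against 12% to 40.1% in the others. In units of control replicate 2, the worth of 1 fragment was 4.03 in control replicate 1, 6.87 in fibril replicate 1 and 0.824 to 1.95 in the remaining libraries, so low values of replicate 1 are the least precise. An FPKM of 0 can also be a failed estimate. Markers were set against the cell label: in every library Pdgfra was at 43.4 FPKM or more, while the 10 listed fibroblast genes summed to 0.138 to 0.474 FPKM and the 9 matched endothelial genes to 0.142 to 0.742 FPKM. Pdgfrb, the receptor that defines pericytes (which also carry NG2), was at or below 0.0512 FPKM in every library. The 12 pericyte and smooth muscle markers summed to 3.03 to 9.72 FPKM over the controls and 2.39 to 10.7 FPKM over the fibril libraries, led by Tagln and Myh11. Other lists were well above 0, so the label is not shown to cover all cells. Over the 6 libraries the 12 neuron markers summed to 374 to 954 FPKM and the 12 astrocyte markers to 96.2 to 243 FPKM. The 12 matched markers of differentiating oligodendrocytes summed to 269 to 2370 FPKM.

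Pdgfra (ENSRNOG00000002244, chromosome 14, 35527926 to 35581031 in the table's coordinates) encodes the alpha receptor for PDGF. Control replicates 1, 2 and 3 were at 47.5, 146 and 304 FPKM, and the fibril libraries of the same numbers at 43.4, 95.3 and 60.2 FPKM. Control replicate 3 stood highest, and 2 fibril libraries lay above the lowest control. The group means were 166 ± 130 FPKM and 66.3 ± 26.5 FPKM (SD, n = 3). The mean difference was -1.02 on the log2 scale (SE 0.68, 95% interval -2.55 to 0.52), and limma gave an adjusted p of 0.96. Within replicates 1, 2 and 3 the differences were -0.13, -0.61 and -2.32.

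Cspg4 (ENSRNOG00000017208, chromosome 8, 61532464 to 61567510) encodes the NG2 core protein, a chondroitin sulfate proteoglycan that spans the membrane. In controls it measured 4.59 FPKM in replicate 1, 31.5 FPKM in replicate 2 and 98.8 FPKM in replicate 3. The corresponding fibril values were 3.22, 23.6 and 25.3 FPKM. Replicate 1 was low in both groups, and control replicate 3 was far above every other library. The mean difference was -0.91 (SE 1.06, 95% interval -3.31 to 1.495; limma adjusted p = 0.96). The replicate differences were -0.40, -0.40 and -1.93, and without control replicate 3 the mean difference was 0.05.

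Ptprz1 (ENSRNOG00000006030, chromosome 4, 49941303 to 50140762) encodes a receptor phosphatase that binds pleiotrophin and midkine. Its control levels were 111, 137 and 302 FPKM and its fibril levels 91.7, 115 and 32.9 FPKM. Fibril replicate 3 was the lowest library and control replicate 3 the highest, and fibril replicate 2 lay above control replicate 1. The group means were 183 ± 104 FPKM and 79.9 ± 42.4 FPKM (SD, n = 3). The mean difference was -1.23 (SE 0.60, 95% interval -2.60 to 0.15; limma adjusted p = 0.96). In replicates 1 and 2 the fibril library held 0.828 and 0.841 times the control level, and in replicate 3 it held 0.109 times.

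Pcdh15 (ENSRNOG00000000606, chromosome 20, 14952212 to 15334745) encodes protocadherin-15, known best from the tip links of inner ear hair cells. The control libraries had 18.5, 35.3 and 30.6 FPKM, and the fibril libraries 5.23, 28.4 and 3.62 FPKM. Fibril replicates 1 and 3 were below every control, whereas fibril replicate 2 was above control replicate 1. The group means were 28.1 ± 8.66 FPKM and 12.4 ± 13.9 FPKM (SD, n = 3). The mean difference was -1.57 (SE 0.68, 95% interval -3.12 to -0.03). Its unadjusted limma p was 0.0463 and its adjusted p 0.96, and 4.02% of tested genes (433) had an unadjusted p under 0.05.

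C1ql1 (ENSRNOG00000002963, chromosome 10, 91040004 to 91047177) encodes a secreted C1q-like protein that binds the adhesion receptor ADGRB3. It was the steadiest of the 7 across controls, at 114, 130 and 150 FPKM. With fibrils it measured 101, 110 and 256 FPKM. Fibril replicate 3 was the highest library, and fibril replicates 1 and 2 were the lowest. The mean difference was 0.12 (SE 0.49, 95% interval -0.99 to 1.23; limma adjusted p = 0.99), made up of -0.17, -0.24 and 0.77. Its sign depended on the scaling. Rescaled to equal totals without mitochondrial genes, C1ql1 had a lower fibril value in all 3 replicate numbers, and the mean difference was -0.19. In replicate 3 the rescaled difference was only -0.02.

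Matn4 (ENSRNOG00000014021, chromosome 3, 160838631 to 160864534) encodes matrilin-4, a secreted adaptor protein of the extracellular matrix. Both libraries of replicate 1 list it at 0. Replicates 2 and 3 had 2.75 and 6.29 FPKM as controls, beside 1.80 and 10.4 FPKM after fibrils. Fibril replicate 3 was highest and fibril replicate 2 was the lowest library above 0. The mean difference was 0.08 (SE 0.96, 95% interval -2.09 to 2.24; limma adjusted p = 1.00), and -0.21 with the same rescaling.

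Neu4 (ENSRNOG00000019031, chromosome 9, 101284901 to 101290558) encodes a membrane-associated sialidase. It too is listed at 0 in both libraries of replicate 1. Replicates 2 and 3 had 0.616 and 0.731 FPKM as controls, beside 0.292 and 0.22 FPKM after fibrils. Both fibril values were below both control values there. The gene did not reach the level for testing, and an exact two-sided permutation test over the 6 libraries gave p = 0.4 for the mean difference of -0.28.

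**Figure D1:**
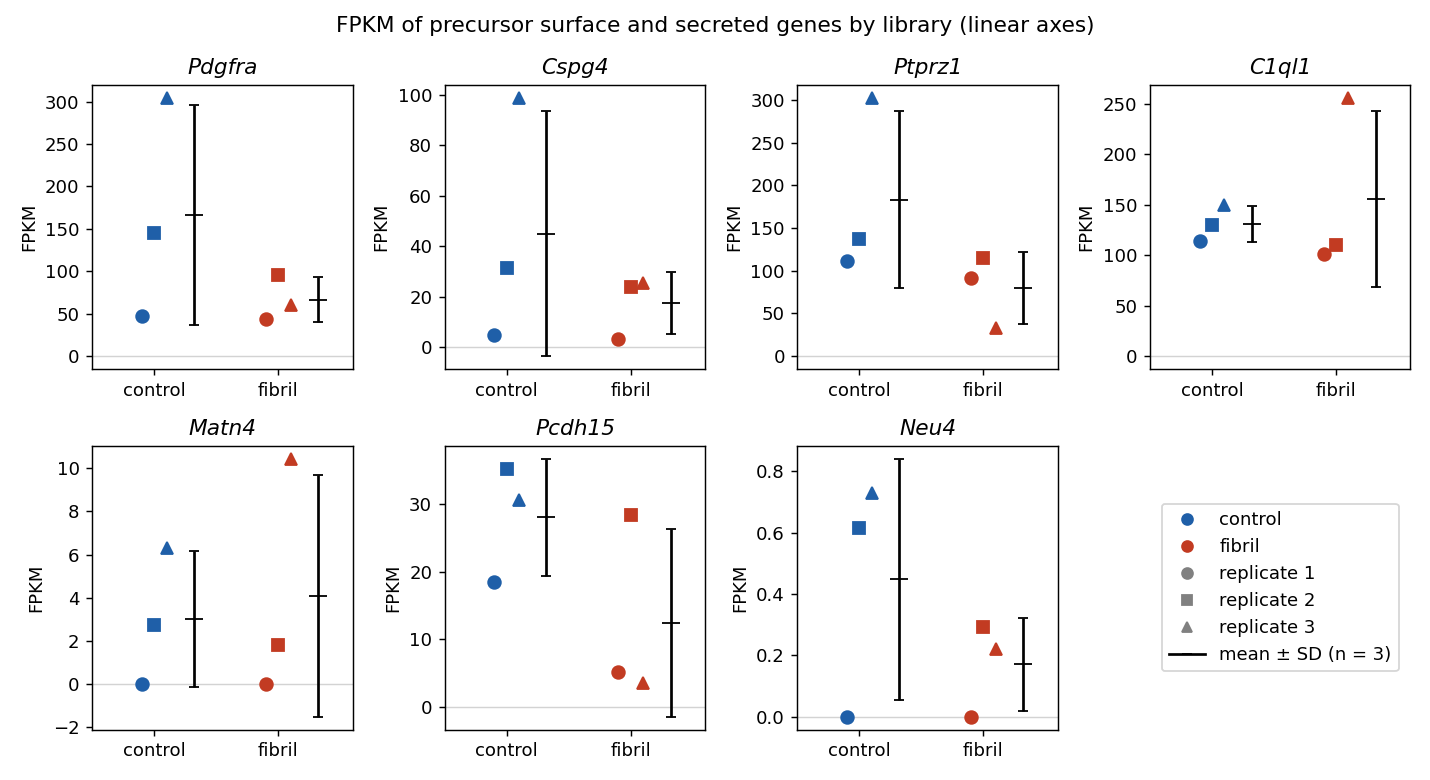
FPKM of each of the 7 genes in the 6 libraries (controls in blue, fibril libraries in red, one marker shape per replicate) on linear axes, with the mean and SD of 3 libraries in black. For every gene the groups overlap, and control replicate 3 is the highest library for Pdgfra (304 FPKM), Cspg4 (98.8 FPKM) and Ptprz1 (302 FPKM).

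The 7 genes spanned levels from near 0 to the top of the transcriptome. In controls the order of mean levels was Ptprz1 (183 FPKM), Pdgfra (166 FPKM), C1ql1 (131 FPKM), Cspg4 (45.0 FPKM), Pcdh15 (28.1 FPKM), Matn4 (3.01 FPKM) and Neu4 (0.449 FPKM). The first 3 overlapped one another, Cspg4 overlapped Pdgfra, Pcdh15 and Matn4, and Matn4 overlapped Neu4. The C1ql1 values all lay above the Cspg4 values, and the Pcdh15 values all lay above those of Matn4. In the fibril libraries C1ql1 led (156 FPKM), followed by Ptprz1 (79.9 FPKM), Pdgfra (66.3 FPKM), Cspg4 (17.4 FPKM), Pcdh15 (12.4 FPKM), Matn4 (4.08 FPKM) and Neu4 (0.171 FPKM). There the values of Pdgfra, Ptprz1 and C1ql1 were all above those of Cspg4. Pcdh15, Cspg4 and Matn4 overlapped one another, and Matn4 overlapped Neu4.

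Places within each library do not depend on how the library was scaled. C1ql1 kept a high place throughout, above 94.1% to 97.2% of tested genes in controls and 92.8% to 96.8% with fibrils. Ptprz1 stood above 93.8% to 99.0% in controls, and with fibrils above 92.1%, 95.6% and 79.0% in replicates 1, 2 and 3. Pdgfra stood above 86.2% to 99.0% in controls and 84.5% to 94.4% with fibrils. The place of Cspg4 varied most between controls, from 36.1% in replicate 1 to 95.5% in replicate 3. Pcdh15 stood above 71.0% to 84.1% of tested genes in controls, and above 39.2%, 80.2% and 30.6% in fibril replicates 1, 2 and 3.

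**Figure D2:**
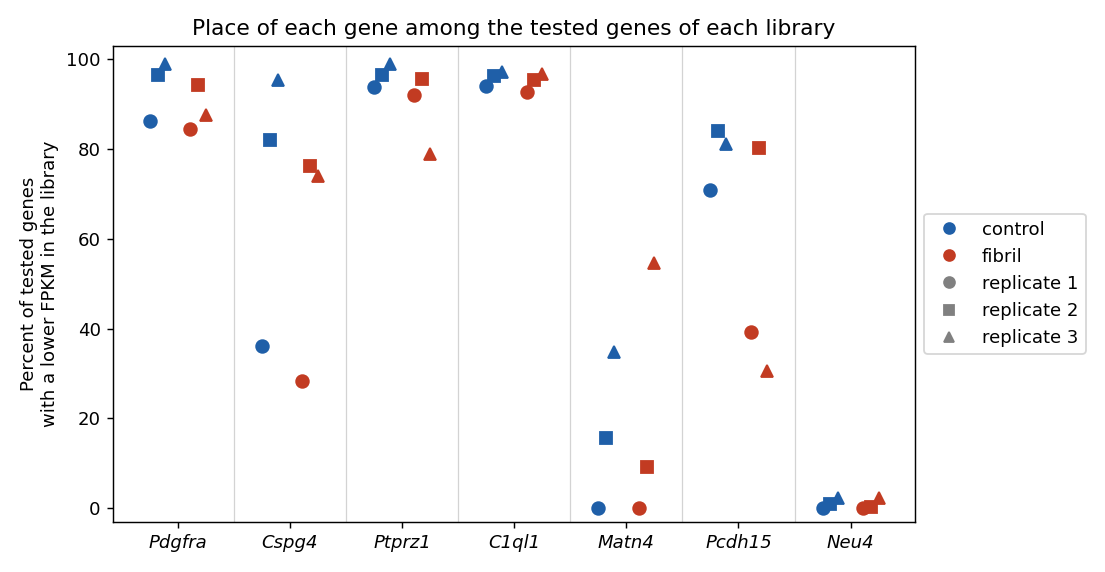
Percentage of the tested genes with a lower FPKM in the same library, for each of the 7 genes (controls in blue, fibril libraries in red, one marker shape per replicate). C1ql1 lies between 92.8% and 97.2% in all 6 libraries, while Ptprz1 is at 79.0% and Pcdh15 at 30.6% in fibril replicate 3.

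Set against all tested genes, the test between groups called none of these genes. Limma without a replicate term called 0 of the 6 tested genes and 0 of all 10766 (0%), and 1 of the 6 (Pcdh15) had an unadjusted p under 0.05. Same-numbered libraries correlated at over 0.1 after removal of group means (0.747, 0.364 and 0.216), though control 3 with fibril 2 (0.5) and control 2 with fibril 3 (0.433) correlated more than the same-numbered libraries of replicates 2 and 3. Limma was also run with a block for replicate number; it called 12 genes (0.111%), 0 of them among these. In that fit the adjusted p was 0.407 for Pcdh15 (unadjusted 0.00994), 0.499 for Cspg4 (unadjusted 0.0463), 0.5 for Pdgfra, 0.505 for Ptprz1, 0.89 for C1ql1 and 0.942 for Matn4. The block intervals ran from -2.65 to -0.50 for Pcdh15 and from -1.80 to -0.02 for Cspg4. They ran from -2.05 to 0.02 for Pdgfra and from -2.56 to 0.11 for Ptprz1. The intervals are not adjusted for the number of genes tested. How many of all tested genes had an unadjusted p under 0.05 in the block fit was not counted, so these intervals have no background beside them.

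The median difference of the 6 tested genes was -0.96, beside -0.04 for all tested genes. By replicate number it was -0.22, -0.35 and -2.12. Of the 6, 4 were lower in all 3 replicate numbers, where 19.3% of all tested genes were (16.9% were higher in all 3). After rescaling without mitochondrial genes 5 were, where 30.4% of genes were (9.64% were higher in all 3). That scaling moved the median of all genes from -0.04 to -0.33. The gene it added was C1ql1, whose rescaled difference in replicate 3 was only -0.02. None of the 7 had groups that did not overlap, beside 5.3% of tested genes with all fibril libraries lower and 4.24% with all fibril libraries higher.

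Replicate 3 carried most of the size of the differences. With replicates 1 and 2 only, the mean differences were -0.37 for Pdgfra, -0.40 for Cspg4, -0.26 for Ptprz1 and -0.97 for Pcdh15. All 4 kept their sign at a smaller size there. With replicates 2 and 3 only, they were -1.46, -1.16, -1.71 and -1.54.

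**Figure D3:**
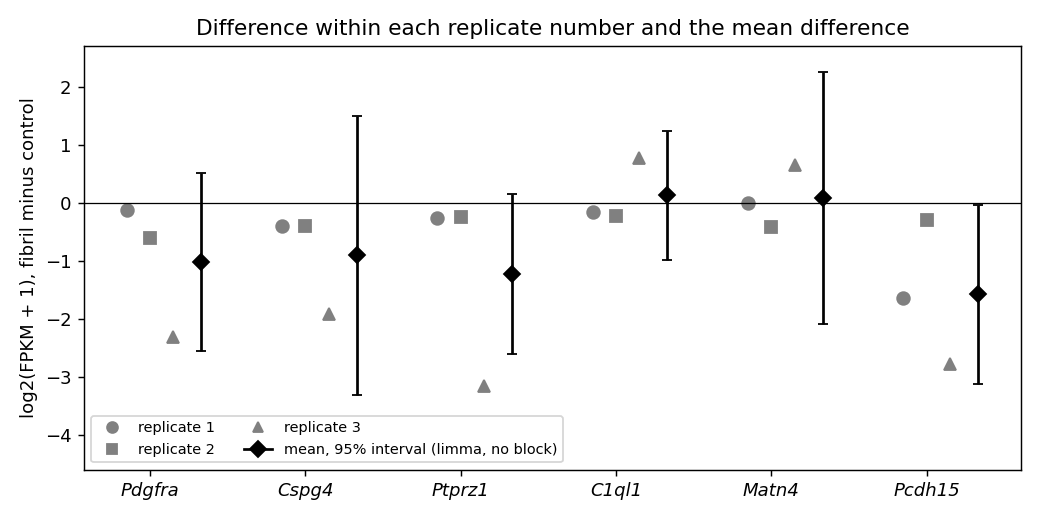
Difference in log2(FPKM + 1), fibril minus control, within each replicate number (grey) and as the mean with its 95% interval from limma without a block (black), for the 6 tested genes. The replicate 3 difference is the most negative for Pdgfra (-2.32), Cspg4 (-1.93), Ptprz1 (-3.16) and Pcdh15 (-2.78), and the most positive for C1ql1 (0.77) and Matn4 (0.65).

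The genomic span of a gene moved with the replicate 3 difference over the whole table. Among all tested genes, the median difference in replicate 3 ran from 0.63 for 1570 genes under 5 kb to -0.98 for 775 genes over 160 kb. In replicate 1 the same bins ran from 0.09 to -0.15, and in replicate 2 from -0.04 to -0.11. Spearman's rho between span and difference, across 10766 genes that are not independent, was -0.15, -0.01 and -0.42 in replicates 1, 2 and 3. C1ql1 spans 7.17 kb, Matn4 25.9 kb, Cspg4 35.0 kb, Pdgfra 53.1 kb, Ptprz1 199.5 kb and Pcdh15 382.5 kb.

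The 2 widest genes, Ptprz1 and Pcdh15, thus lay in the bin with the lowest median. Their replicate 3 differences of -3.16 and -2.78 were below that median by 2.19 and 1.80 on the log2 scale. Cspg4 and Pdgfra were below the medians of their bins (-0.08 and -0.51) by 1.85 and 1.81. C1ql1 was 0.19 above the median of its bin (0.58), and Matn4 was 0.73 above the median of its bin. The part that span has in these differences was not tested.

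**Figure D4:**
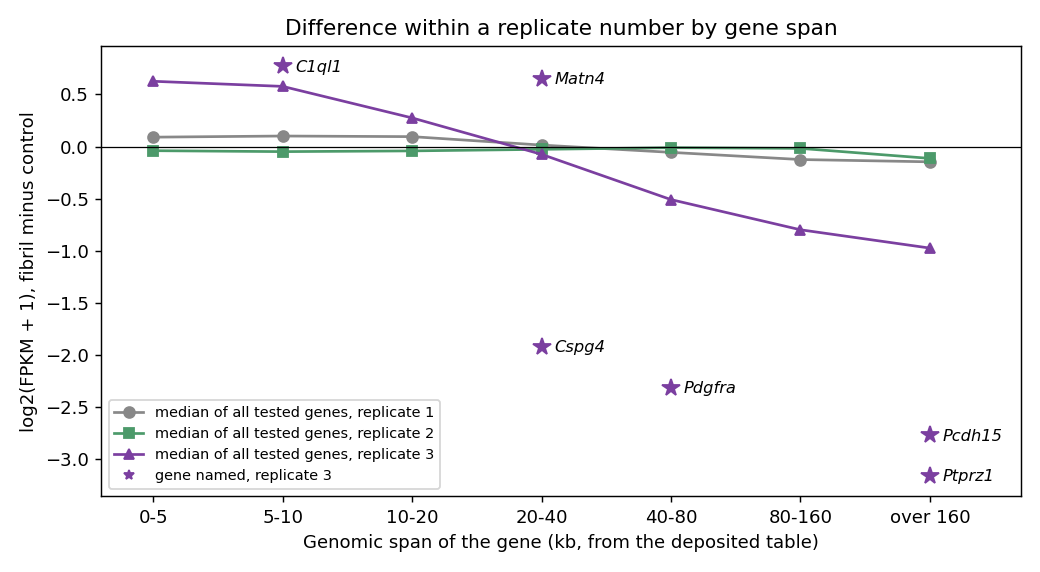
Median difference in log2(FPKM + 1), fibril minus control, of all tested genes by genomic span in kb (lines, one per replicate number), with the replicate 3 difference of the 6 tested genes as stars in their bins. The replicate 3 line runs from 0.63 to -0.98, and Cspg4, Pdgfra, Pcdh15 and Ptprz1 lie below it.

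The genes followed one another to different degrees. Pearson's r of log2(FPKM + 1) over the 6 libraries, which share their depth and mitochondrial content, was 0.91 for Pdgfra with Cspg4, 0.86 for C1ql1 with Matn4, 0.84 for Cspg4 with Matn4 and 0.81 for Ptprz1 with Pcdh15. It was 0.73 for Pdgfra with Ptprz1 and 0.69 for Pdgfra with Pcdh15, so the pairs were joined to one another. For Ptprz1 with C1ql1 it was -0.52. The level of Pdgfra per unit of Cspg4 was 10.3, 4.63 and 3.08 in controls and 13.5, 4.03 and 2.38 with fibrils, so this ratio separated the replicate numbers and not the groups. Ptprz1 per unit of C1ql1 was 0.975, 1.05 and 2.02 in controls and 0.906, 1.05 and 0.128 with fibrils. Replicates 1 and 2 were alike between groups in that ratio, and replicate 3 was not.

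The genes most like each member were sought among 7467 others with a mean of at least 5 FPKM. For Pdgfra they were Gtpbp1, Ubr7 and Supt7l (r = 0.998, 0.997 and 0.995), for Cspg4 Ptk7, Hcn2 and Hs2st1 (0.995, 0.994 and 0.993), and for Ptprz1 Cdk13, Dip2c and Slc39a10 (0.995, 0.994 and 0.994). For C1ql1 they were Pa2g4, Kars and Preb (0.998, 0.995 and 0.992), for Matn4 Rpn2, Nol10 and Tesk1 (0.998, 0.997 and 0.997), and for Pcdh15 Ubn2, Sh3pxd2b and Elk1 (0.995, 0.987 and 0.984). With 6 libraries such values are common: between 37 (Pcdh15) and 249 (Matn4) genes exceeded 0.95.

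Promoters are shown for Pdgfra and Cspg4, whose levels followed each other most closely, and for Pcdh15, which had the largest mean difference. They are RefSeq sequences of the GRCr8 build, whose coordinates differ from those of the deposited table, and run from 250 bases before to 50 bases after the transcript start, 5′ to 3′ on the gene's strand. Capitals mark CpG dinucleotides. The RefSeq table matched 4 of the 7 genes.
Pdgfra, chr14:33408467-33408766, minus strand: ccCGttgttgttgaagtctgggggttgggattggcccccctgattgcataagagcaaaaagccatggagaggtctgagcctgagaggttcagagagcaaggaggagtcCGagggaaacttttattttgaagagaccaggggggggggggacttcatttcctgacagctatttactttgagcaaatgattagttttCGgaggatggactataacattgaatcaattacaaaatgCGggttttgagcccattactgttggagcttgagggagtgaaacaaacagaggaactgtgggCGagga
Cspg4, chr8:66160692-66160991, plus strand: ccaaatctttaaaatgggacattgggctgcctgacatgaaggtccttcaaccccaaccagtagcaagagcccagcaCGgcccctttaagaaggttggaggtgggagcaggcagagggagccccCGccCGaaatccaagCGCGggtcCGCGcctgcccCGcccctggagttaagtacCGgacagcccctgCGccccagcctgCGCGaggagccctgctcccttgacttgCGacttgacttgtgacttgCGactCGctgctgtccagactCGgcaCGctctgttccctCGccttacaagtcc
Pcdh15, chr20:14824749-14825048, minus strand: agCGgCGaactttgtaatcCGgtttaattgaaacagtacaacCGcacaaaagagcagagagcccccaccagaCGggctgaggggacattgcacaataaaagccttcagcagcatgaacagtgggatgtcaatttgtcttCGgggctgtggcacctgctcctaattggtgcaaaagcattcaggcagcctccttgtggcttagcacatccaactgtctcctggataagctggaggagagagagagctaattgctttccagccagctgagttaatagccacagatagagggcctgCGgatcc

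These promoters differ in base composition. Cspg4 has 18 CpG and 62.0% G or C, Pdgfra 5 CpG and 48.0%, and Pcdh15 7 CpG and 51.3%, beside medians of 7 CpG and 51.7% over 33469 rat promoters of this length. The motifs searched, on both strands, were these 4: the SOX core ACAAAG, the GC box GGGCGG, the E-box CAGCTG and the TATA motif TATAAA, found in 18.8%, 33.1%, 15.1% and 14.2% of all promoters. Cspg4 holds 2 GC boxes, starting 128 and 94 bases before the transcript start. Pcdh15 holds 1 SOX core 241 bases before the start and 1 E-box, and the Pdgfra window holds 0 of the 4. A match is a description of letters and not of a bound site.

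Around the receptor Pdgfra, its ligand Pdgfa was higher in the fibril library of every replicate number. Pdgfa, which encodes the A chain of PDGF, had 3.41, 11.8 and 14.9 FPKM across controls 1 to 3, beside 8.57, 22.7 and 73.0 FPKM across fibril libraries 1 to 3. Fibril replicate 1 lay below 2 of the controls, so the groups overlapped. The difference was 1.41 (SE 0.77; limma adjusted p = 0.96, and 0.323 with the block). Pdgfc, another ligand of the receptor, had 7.78 ± 2.94 FPKM and 6.89 ± 1.02 FPKM (SD, n = 3; limma adjusted p = 0.99). The other 3 genes of this list, Pdgfb, Pdgfd and Pdgfrb, were too low to test.

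The receptor level per unit of Pdgfa was 13.9, 12.4 and 20.5 in controls and 5.06, 4.20 and 0.825 with fibrils. All 3 fibril libraries lay below all 3 controls in this ratio. How many ratios of other gene pairs separate the groups was not counted, so the ratio has no background beside it. The ratio was computed after the values of both genes had been seen. The smallest two-sided p that an exact permutation test allows it is 0.1. Ptprz1 per unit of Ptn, which encodes its ligand pleiotrophin, was 0.122, 0.17 and 0.524 in controls. With fibrils that ratio was 0.222, 0.368 and 0.0639, higher in replicates 1 and 2 and lower in replicate 3, so the groups overlapped.

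Pleiotrophin, from Ptn, is the ligand of PTPRZ1. Ptn had 908, 804 and 577 FPKM in the 3 controls, and 413, 313 and 514 FPKM in the matching fibril libraries. All fibril libraries were below all controls, and the difference was -0.89 (SE 0.52; limma adjusted p = 0.96, and 0.5 with the block). Midkine, the other ligand, was low at 2.09 ± 0.293 and 2.11 ± 1.84 FPKM (Mdk; SD, n = 3).

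Cntn1 encodes contactin-1, an adhesion protein that binds PTPRZ1, and had the smallest p of that list. Its control values were 56.3, 195 and 316 FPKM and its fibril values 48.8, 128 and 23.2 FPKM. The same libraries were highest and lowest as for Ptprz1, and the difference was -1.51 (SE 0.78; limma adjusted p = 0.96). Cntn1 spans 186 kb. Ncam1 and Nrcam, other adhesion partners, differed by -0.86 and -0.83, and Tnr, the matrix partner tenascin-R, by -0.01 (limma adjusted p of at least 0.96 for each). All 12 listed ligands and partners of PTPRZ1 were tested: 10 had negative and 2 positive differences, 0 passed with or without the block, and the median was -0.56, or -0.16, -0.24 and -0.88 by replicate number. It was -0.31 without control replicate 3 and -0.35 without fibril replicate 1.

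Among 8 listed partners of NG2, 6 were tested and 0 passed, with a median of -0.16. That median was 0.08 with a filter at 5 FPKM, -0.28 without control replicate 1 and -0.09 without control replicate 3. Lgals3, whose product galectin-3 binds NG2, had 1.31, 2.22 and 0 FPKM in the 3 controls, and 5.85, 18.9 and 7.80 FPKM in the matching fibril libraries. All fibril libraries were higher than all controls, with a difference of 2.45 (SE 0.58; limma adjusted p = 0.564, and 0.101 with the block). Macrophages also express Lgals3. The 11 matched microglia and macrophage markers summed to 8.76, 46.9 and 1.93 FPKM across controls 1 to 3, beside 11.1, 51.7 and 33.4 FPKM across fibril libraries 1 to 3, led by Cd68 and Tyrobp; 8 of the 11 reached 1 FPKM in any library. Their part in the Lgals3 values was not tested. Itgb1, an integrin that associates with NG2, had 71.0 ± 11.4 and 68.5 ± 14.8 FPKM (SD, n = 3).

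**Figure D5:**
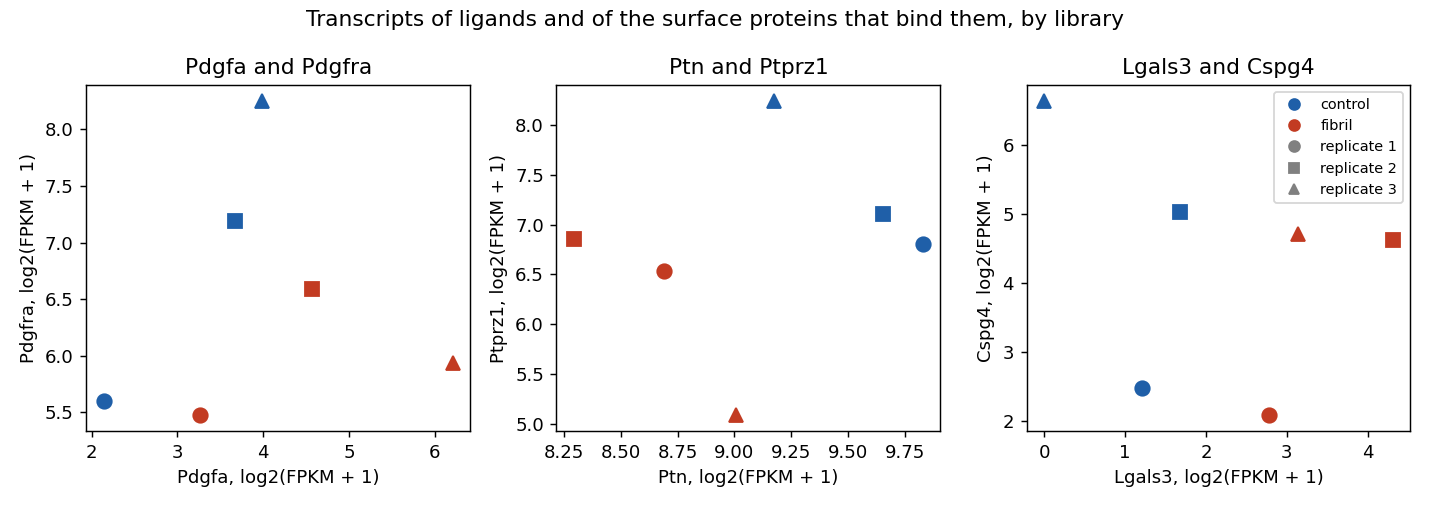
log2(FPKM + 1) of Pdgfa and Pdgfra, Ptn and Ptprz1, and Lgals3 and Cspg4 in the 6 libraries (controls in blue, fibril libraries in red, one marker shape per replicate). Every fibril library is above every control for Lgals3 and below every control for Ptn, while for Pdgfra, Ptprz1 and Cspg4 the groups overlap.

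The relatives of C1ql1 were expressed at lower levels than C1ql1 itself. C1ql2 had 6.53 ± 4.16 FPKM as control mean and 4.79 ± 4.55 FPKM as fibril mean, and C1ql3 had 1.88 ± 1.01 and 1.75 ± 2.03 FPKM (SD, n = 3). Cbln1, a cerebellin of the same C1q family, had 3.85 ± 0.961 and 2.58 ± 1.94 FPKM (SD, n = 3). Adgrb1 and Adgrb2, adhesion receptors of the same family as Adgrb3, were the most abundant of this list, with Adgrb1 at 52.0 ± 37.8 and 40.6 ± 29.6 FPKM and Adgrb2 at 28.2 ± 18.9 and 25.7 ± 14.9 FPKM (SD, n = 3). Adgrb3, the receptor for C1q-like proteins, had 5.34, 10.5 and 14.5 FPKM in the 3 controls, and 5.55, 8.06 and 3.57 FPKM in the matching fibril libraries. It was lower with fibrils in 2 of 3 replicate numbers (difference -0.69, SE 0.47; limma adjusted p = 0.96). Of the 10 listed relatives and receptors, 6 were tested, 6 had negative differences and 0 passed, with a median of -0.42. Leaving out 1 library moved that median between -0.89 (without control replicate 1) and 0.15 (without fibril replicate 1). Of the 3 other matrilin genes 0 reached the level for testing. Matn2 was at 0.45 ± 0.154 and 0.409 ± 0.193 FPKM (SD, n = 3), and Matn3 was listed at 0 in all libraries.

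Of 9 listed partners of protocadherin-15 in the hair cell, 1 was tested. This was Cib2, a calcium-binding protein, at 17.6 ± 6.41 and 14.8 ± 2.64 FPKM (SD, n = 3; limma adjusted p = 0.972). Cdh23, the cadherin that pairs with protocadherin-15 in tip links, was at 0.304 FPKM or less in every library, and Tmc1, Tmc2 and Ush1c were listed at 0 in all of them.

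Among sialidases, the lysosomal Neu1 was the most abundant. Neu1 had 7.50, 9.83 and 10.1 FPKM in the 3 controls, and 7.94, 16.7 and 18.3 FPKM in the matching fibril libraries. It was higher with fibrils in all 3 replicate numbers, though the groups overlapped (difference 0.53, SE 0.43; limma adjusted p = 0.96). Neu3 stayed at or below 0.256 FPKM and Neu2 was listed at 0. St8sia3, a sialyltransferase, had the smallest p of this list. It had 1.37, 2.06 and 2.46 FPKM across controls 1 to 3, beside 0, 0.896 and 0.337 FPKM across fibril libraries 1 to 3. All fibril libraries were below all controls (difference -1.10, SE 0.40, limma adjusted p = 0.96), as for 5.3% of all tested genes. These levels are low, and the 0 is in fibril replicate 1, where the worth of 1 fragment was largest (6.87). Of 13 listed genes of sialic acid metabolism besides Neu4, 9 were tested, 5 had positive and 4 negative differences, and 0 passed. Their median was 0.12, but -0.16 rescaled without mitochondrial genes, -0.23 without control replicate 1 and -0.12 without fibril replicate 3.

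NG2 and PTPRZ1 carry chondroitin sulfate, so the enzymes that build it were counted. Of 23 listed, 20 were tested: 12 had negative and 8 positive differences, 0 passed, and the median was -0.27, or 0.06 without control replicate 3. Chst11, a chondroitin sulfotransferase, had the smallest p, with 17.9, 38.1 and 62.3 FPKM in the 3 controls, and 12.6, 24.7 and 8.45 FPKM in the matching fibril libraries (difference -1.27, SE 0.56; limma adjusted p = 0.96). The groups did not overlap for 3 of the 20: Chst7 and Pxylp1 were lower and Dse higher with fibrils. Over all tested genes, 5.3% were lower and 4.24% higher without overlap, so this count is near the background. Those 3 are named after their values were seen.

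Other genes listed here as markers of precursor cells gave a median of -0.49 over 22 tested of 25 listed. Of these, 17 had negative and 5 positive differences and 0 passed the threshold. By replicate number the medians were -0.24, -0.53 and -0.78. The median was -0.93 without control replicate 1 and -0.30 without control replicate 3. Bcas1, the most abundant gene of the list and named after its values were seen, was among the 5 with a positive difference. It had 4033, 711 and 725 FPKM in the 3 controls, and 6463, 2616 and 2040 FPKM in the matching fibril libraries. Its groups overlapped (difference 1.35, SE 0.92, limma adjusted p = 0.96). All 9 tested markers of differentiating oligodendrocytes also had positive differences. Whether Bcas1 marks precursors in these cultures was not tested. Cacng4, an auxiliary subunit of glutamate receptors, had the smallest p: 186, 108 and 162 FPKM in the 3 controls, and 93.5, 65.2 and 56.0 FPKM in the matching fibril libraries. All fibril libraries were below all controls, with a difference of -1.07 (SE 0.43; limma adjusted p = 0.96, and 0.4 with the block).

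Markers of neighbouring cell states were summed in each library. The 12 matched markers of differentiating oligodendrocytes used here summed to 616, 269 and 444 FPKM across controls 1 to 3, beside 1350, 1030 and 2370 FPKM across fibril libraries 1 to 3, led by Cnp and Nfasc, so the groups did not overlap. Of the 9 tested, 9 had positive and 0 negative differences, with a median of 1.77, or 1.04, 2.24 and 2.37 by replicate number. The groups did not overlap for 7 of the 9, all higher with fibrils, where 4.24% of all tested genes were higher without overlap. Limma called 0 of the 9 without the block and 2 with it. These 2 were Mag and Enpp6 (limma adjusted p = 0.0267 and 0.0435 with the block), named after their values were seen. The 12 astrocyte markers, a cell type that also expresses Ptprz1, summed to 158, 185 and 211 FPKM in the 3 controls, and 96.2, 116 and 243 FPKM in the matching fibril libraries, led by Aldoc and Slc1a3; Gjb6 was listed at 0 in all libraries. Aldoc alone was at 77.4 FPKM in control replicate 3 and 180.6 FPKM in fibril replicate 3. Of the 9 astrocyte markers tested, 7 had negative and 2 positive differences, with a median of -1.36, or -1.03, -1.02 and -1.47 by replicate number, and limma called 0 with or without the block. The groups did not overlap for 4 of them, named after their values were seen. Over all tested genes, 5.3% were lower and 4.24% higher without overlap. Of these 4, Slc4a4, Gja1 and Slc1a3 had mean levels at 9.04%, 20.3% and 35.6% of the control mean. Gfap, the other, had a control mean of 0.582 ± 0.189 FPKM and a fibril mean of 11.6 ± 11.5 FPKM (SD, n = 3). The 12 neuron markers summed to 954, 594 and 643 FPKM in the 3 controls, and 644, 505 and 374 FPKM in the matching fibril libraries, led by Gap43 and Map2. All 12 were tested: 11 had negative differences and 1 a positive one, and limma called 0 with or without the block. Their median was -0.61, or -0.67, -0.14 and -0.94 by replicate number. The groups did not overlap for 4 of the 12, all lower with fibrils, where 5.3% of all tested genes were lower without overlap. The part of these cell states in the differences of the 7 genes was not tested.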

How the data were processed

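The authors deposited 1 table of FPKM values, 1 column per library, per the file headers; read depth is unknown. The submitters' processing notes name Trimmomatic and FastQC. RNA was taken with a column kit and libraries were made with a strand-specific kit, per the labels' protocols; the series' design text names an Illumina MiSeq. The aligner, quantifier and genome build were not given in the sources used here.

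FPKM were analysed as log2(FPKM + 1) with limma 3.58.1 in R 4.3.3 (mean-variance trend) for genes that reached 1 FPKM in 3 or more libraries. The fit was tested on simulated data. Same-numbered libraries correlated at 0.747, 0.364 and 0.216 after removal of group means, all over 0.1. Limma was therefore also run with a block for replicate number, while the main fit had none. The labels state no pairing. Control 3 with fibril 2 (0.5) and control 2 with fibril 3 (0.433) were higher than the same-numbered values of replicates 2 and 3, so the numbers do not single out those pairs. The worth of 1 fragment came from the commonest ratio between libraries among values below 1 FPKM, with fibril replicate 1 read through control replicate 1.

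All members are named. Of each pathway list, ligands, receptors and relatives that reach that level and the gene with the smallest p are named, and of marker lists the 2 most abundant genes. For likeness, 3 genes per member are named. Members and lists were chosen with earlier results of these data known. Alternatives covered pseudocounts of 0.1 and 5, 2 other filters, 2 scalings, the block and left-out libraries. From the list of differentiating oligodendrocyte markers, 1 gene is not reported here and is left out of its sums and counts.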

Additional observations from a re-analysis of the deposited data

How the results depend on the processing

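Under 18 alternatives, 0 of the 7 genes and 0 of the listed pathway genes passed limma's adjusted p of 0.05; adjusted p ran from 0.345 (Pcdh15, quantile normalization with the replicate block) to 1.00. Pdgfra, Ptprz1 and Pcdh15 were lower with fibrils in every one. Leaving out 1 library moved Pdgfra between -1.73 and -0.40, Ptprz1 between -1.58 and -0.69, Pcdh15 between -2.39 and -1.06, Cspg4 between -2.03 and 0.05, C1ql1 between -0.30 and 0.36, and Matn4 between -0.85 and 0.91; Cspg4 turned positive (0.054) without control replicate 3. C1ql1 turned negative without fibril replicate 3 (-0.30), under quantile normalization (-0.23), rescaled without mitochondrial genes (-0.19) and with replicates 1 and 2 only (-0.20), the last 3 with or without the block. Matn4 turned negative without control replicate 1 (-0.72), without fibril replicate 3 (-0.85), rescaled (-0.21) and with replicates 1 and 2 only (-0.21).

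Over all genes, 0 were called higher and 0 lower without a block. The replicate block gave 12 higher, 1 when rescaled without mitochondrial genes, and 13 higher and 2 lower under quantile normalization. Replicates 1 and 2 only gave 44 higher and 7 lower with the block. The fits that each lack 1 library called between 0 and 3 higher, the 3 without fibril replicate 3, and 0 lower. The block with quantile normalization and the fits on replicates 1 and 2 were chosen after seeing the data; the cause of these moves was not tested. The block changed no call of a member or listed pathway gene. A filter at 5 FPKM removed Matn4, and Neu4 was tested only without a filter (limma adjusted p = 0.912). Matn4 and Neu4 were listed at 0 in replicate 1 of both groups, and read depth is unknown.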
